A study of Mus musculus with 5 samples.

Results

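The mature miRNAs of the miR-199 and miR-214 genes were followed in mouse back skin before and after wounding. They were taken as every array probe whose name begins with miR-199a-, miR-199b or miR-214-, and 5 of the 1900 mouse miRNA probes met this rule, filling 10 of 3800 spots. These were mmu-miR-199a-3p, mmu-miR-199a-5p, mmu-miR-199b-5p, mmu-miR-214-3p and mmu-miR-214-5p, written below without the species prefix. Total RNA came from female mice, and each of the 5 conditions was measured on 1 single-colour array. The conditions were unwounded skin of 2-year-old mice (aged D0), wounds of 2-year-old mice on days 3, 5 and 7 (aged D3, D5 and D7), and unwounded skin of 8-week-old mice (young D0). All skin was in telogen, the resting phase of the hair cycle, and the wounds were full-thickness punch biopsies of 3 mm. The strain, and whether RNA of several mice was pooled, are not given in the sources used here. With 1 array for each condition, a difference between conditions and a difference between arrays or mice cannot be told apart, and no test was possible. Changes are therefore given as ratios of 1 array over another, with the values of both repeat spots and the values of other miRNAs on the same arrays.

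miRNAs are short RNAs that lower the translation and stability of messenger RNAs, mainly by pairing through their seed, bases 2 to 8 from the 5′ end. A hairpin precursor can release a mature miRNA from its 5′ arm (-5p) and another from its 3′ arm (-3p). The miR-199 and miR-214 genes are best known from mesenchymal cells such as fibroblasts, where the transcription factor Twist1 is known to drive the long non-coding host RNA Dnm3os, and where miR-199a-5p is known to repress caveolin-1 during fibrosis. The arrays held whole skin, so the cell type that supplied these miRNAs was not measured, and fewer cells of a type and less RNA per cell cannot be told apart in such tissue.

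The 5 mature sequences are shown because they decide what the probes can tell apart. They are the sequences given with the array probes, written 5′ to 3′ with the seed in capitals.
miR-199a-3p: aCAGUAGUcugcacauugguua
miR-199a-5p: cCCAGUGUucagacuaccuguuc
miR-199b-5p: cCCAGUGUuuagacuaccuguuc
miR-214-3p: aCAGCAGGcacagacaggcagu
miR-214-5p: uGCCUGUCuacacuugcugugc
miR-199a-5p and miR-199b-5p share their seed and differ at 1 of 23 bases, C10U, counted from 1 at the 5′ end with the miR-199a-5p base given before the position. These probes may therefore each bind some of the other miRNA. The miR-214-3p seed was shared by 1 other probe, miR-761, which was above the detection level on 0 arrays. No other probe on the array held the seed of miR-199a-3p or that of miR-214-5p. The miR-199a-3p sequence is also that of miR-199b-3p, so this probe reads the 3′ arms of all 3 miR-199 genes together.

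The genes lie on 3 chromosomes of the mouse build GRCm38.p6, and their hairpins are shown from RefSeq with both arms in capitals because the 5′ arm is what separates the miR-199a genes from Mir199b.
Mir199a-2, chr1:162217814-162217923, plus strand: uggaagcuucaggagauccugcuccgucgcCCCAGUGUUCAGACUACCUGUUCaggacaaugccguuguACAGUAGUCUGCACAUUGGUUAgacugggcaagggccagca
Mir214, chr1:162223368-162223477, plus strand: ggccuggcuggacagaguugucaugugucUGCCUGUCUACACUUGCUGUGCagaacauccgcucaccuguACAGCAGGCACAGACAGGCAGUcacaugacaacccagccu
Mir199b, chr2:32318460-32318569, plus strand: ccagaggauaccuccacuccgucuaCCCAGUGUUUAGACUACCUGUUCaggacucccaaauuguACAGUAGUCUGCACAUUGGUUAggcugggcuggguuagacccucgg
Mir199a-1, chr9:21496495-21496564, minus strand: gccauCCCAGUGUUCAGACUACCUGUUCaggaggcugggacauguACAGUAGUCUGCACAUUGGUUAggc
Mir199a-2 and Mir214 both lie inside Dnm3os (chr1:162217623-162225550, plus strand), separated by 5444 bases, and Dnm3os itself runs antisense within the dynamin gene Dnm3. Mir199a-1 lies antisense within Dnm2, and Mir199b antisense within Dnm1. Of the 5 mature miRNAs, only miR-214-3p and miR-214-5p come from a single gene that is part of Dnm3os, only miR-199b-5p comes from Mir199b alone, and miR-199a-5p can come from both Mir199a genes.

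A probe was taken as detected when its scanned intensity passed a level set from its array's 4 empty spots (their 95th percentile, between 58.3 and 107 units), and as bright when it passed 2 times that level. All 5 probes were detected on all 5 arrays and 4 were bright on all of them. The exception was miR-214-5p, the less abundant strand of the Mir214 hairpin in most tissues, which was below the bright level in aged D0 skin. The keratinocyte miRNAs miR-205-5p and miR-203-3p read 19978 and 11451 units in aged D0 skin, as fits the tissue label. The number of detected probes ran from 589 in aged D0 to 1768 in aged D3, whose detection levels were 105 and 58.3 units. The arrays also differed in median intensity, from 62.9 units in aged D5 to 111 in aged D7. Ratios were taken after quantile normalization of the log2 intensities unless scanned intensities are named. The disagreement of the repeat spots put an SD between 0.134 and 0.247 on a log2 ratio against aged D0 or young D0 skin, which covers the spots of an array and not mice.

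As scanned, miR-199a-3p, known to repress mTOR and c-Met in liver cells, averaged 2959 units over both spots in unwounded aged skin and 1616, 2165.5 and 7316 units in the D3, D5 and D7 wounds, beside 7662 in young skin. miR-199a-5p averaged 1258, 954, 1224 and 4675 units on the aged D0, D3, D5 and D7 arrays and 3376 on the young array. The probes for these arms of the same hairpins were thus both brightest on the D7 and young arrays and dimmest at D3. miR-199b-5p, known to repress the Notch effector Hes1, averaged 363, 309 and 358 units on the aged D0, D3 and D5 arrays, against 2356 at D7 and 2703 in young skin. Its 3 dim arrays and 2 bright arrays did not come near each other, with single spots between 283 and 391 units on the dim ones and between 2176 and 2995 on the bright ones. miR-214-3p, known to repress the histone methyltransferase Ezh2 in muscle cells, averaged 3325, 2118, 3656.5 and 5044 units on the aged D0, D3, D5 and D7 arrays and 6094 in young skin. miR-214-5p averaged 148, 133, 143 and 297 units and 232 in young skin, and it was the dimmest of the 5 probes relative to the detection level. All 5 were dimmest as scanned at D3 and brighter in young than in aged D0 skin. The typical bright miRNA was also brighter in young skin, since without normalization the median ratio of aged over young was 0.462 over 210 miRNAs bright on both arrays.

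**Figure D1:**
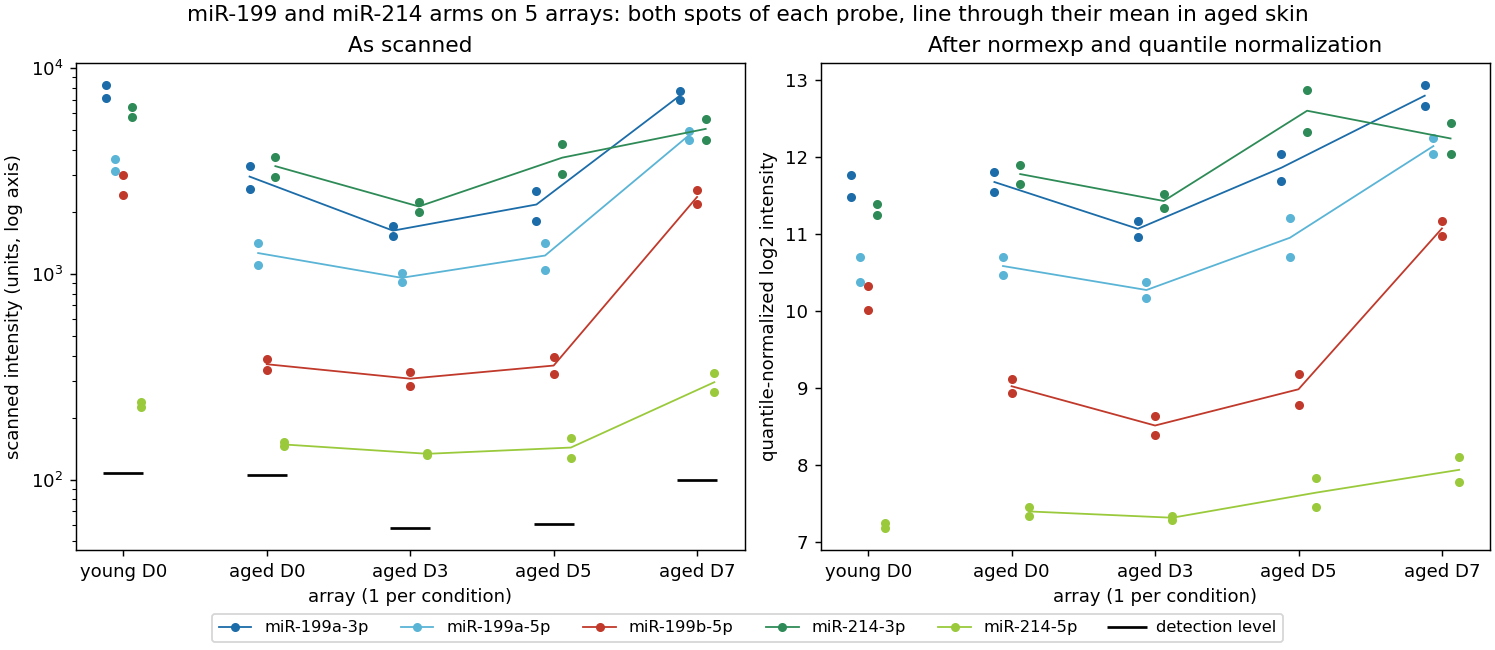
Intensity of the 5 miR-199 and miR-214 probes on the 5 arrays, as scanned on a log axis (left, units) and after background correction and quantile normalization (right, log2); points are the 2 repeat spots, lines join the means of the aged arrays, and black bars mark the detection level of each array. miR-199b-5p reads 358 units at D5 and 2356 at D7, and after normalization miR-214-3p is highest at D5 while both miR-199a arms are highest at D7.

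At D3, none of the 5 miRNAs had changed 2-fold. After normalization the D3 over D0 ratio was 0.657 for miR-199a-3p, 0.702 for miR-199b-5p, 0.786 for miR-214-3p, 0.806 for miR-199a-5p and 0.945 for miR-214-5p. The median was 0.781 for the 207 miRNAs bright on both arrays. Relative to that median, miR-199a-3p was at 0.841 (0.676 to 0.982 under the alternatives) and miR-214-5p at 1.21 (1.04 to 1.26), while the other 3 members were between 0.899 and 1.03 and changed side with the processing. On the whole array 6.09% of the miRNAs detected on 1 or both arrays, and 34.3% of the bright ones, were at least 2-fold higher or lower at D3. Only the ratio of miR-199a-3p was below 1 under all 15 alternative settings of the processing. The D3 ratios differed with base composition across the array, with a median of 0.656 for bright miRNAs at or below 42.9% GC, where miR-199a-3p lies at 40.9%, and 1.53 for those at or above 61.4%. The part of base composition in the miR-199a-3p ratio was not tested. The other 4 miRNAs, between 47.8% and 59.1% GC, lay in the middle range, where the median was 0.744.

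At D5, miR-214-3p had the largest ratio of the 5 members. Its normalized level was 1.77 times that of aged D0 skin, 1.96 and 1.59 for the separate spots, and 23 of 204 bright miRNAs had a larger ratio. The ratio was 1.29 for miR-199a-5p, 1.18 for miR-214-5p, 1.14 for miR-199a-3p and 0.973 for miR-199b-5p. No member had reached 2-fold, where 5.28% of detected and 17.6% of bright miRNAs had moved that far in 1 direction or the other. The direction of each ratio against D0 depended on the scaling of the arrays, and for miR-214-3p it ran from 0.695 with scaling to all spike controls to 1.96. Relative to miR-199a-5p, which removes any factor common to an array, miR-214-3p was 1.37 times higher at D5 than at D0 (1.12 to 1.67 under the alternatives).

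Between D3 and D5 all 5 miRNAs were higher on the later array, in the main values and under all 15 alternatives. After normalization the median ratio of the 278 miRNAs bright on both arrays was itself 1.13. Relative to that median, miR-214-5p was at 1.11 (0.955 to 1.35 under the alternatives), while each of the other members stayed above 1 under all 15. The ratio of D5 over D3 was 2.25 for miR-214-3p, 1.73 for miR-199a-3p, 1.60 for miR-199a-5p, 1.39 for miR-199b-5p and 1.25 for miR-214-5p. Thus 1 of 5 was at least 2-fold higher, beside 1.19% of the detected and 7.19% of the bright miRNAs. The spots of miR-214-3p gave 2.57 and 1.98, so this 2-fold call rested on 1 of its spots, and it was kept under 7 of the 15 alternatives.

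At D7, the 3 miR-199 arms were the members that stood out, and 3 of 5 members were at least 2-fold higher than in unwounded aged skin. On the whole array 2.56% of the 1565 detected miRNAs and 7.88% of the 203 bright ones were at least 2-fold higher. miR-199b-5p had a normalized ratio of 4.13 (4.12 and 4.14 for its spots), and 4 of 203 bright miRNAs had a larger one. miR-199a-5p had a ratio of 2.94 (2.97 and 2.91), with 7 larger, and miR-199a-3p had a ratio of 2.17 (2.16 and 2.19), with 13 larger. The median of the bright miRNAs was 0.895. The ratio of miR-199b-5p stayed between 3.84 and 7.66, and that of miR-199a-5p between 2.32 and 4.43, under the 15 alternatives. For miR-199a-3p it ran from 1.55 to 2.95, at or above 2-fold under 13 of them.

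The Mir214 products were closer to their unwounded level at D7, and neither reached 2-fold after quantile normalization. The ratio was 1.38 for miR-214-3p, with spots at 1.45 and 1.31, and 1.45 for miR-214-5p. For miR-214-5p it ran from 1.17 with the 75th percentile to 2.23, past 2-fold, with 5S scaling, and it was 2.01 as scanned. With scaling to the 75th percentile the miR-214-3p ratio was 0.942, below 1, while the other 14 alternatives kept it above 1. Against the D5 wound, miR-214-3p was at 0.779 by quantile normalization and above 1 under 5 of the alternatives. From D5 to D7, miR-199b-5p was 4.25 times higher and miR-199a-5p 2.28 times higher. These were 2 of 5 members at least 2-fold higher, beside 1.88% of detected and 7.52% of bright miRNAs, and miR-199a-3p was just under at 1.91. The time courses of the miR-199 arms and of miR-214-3p thus separated after D5.

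**Figure D2:**
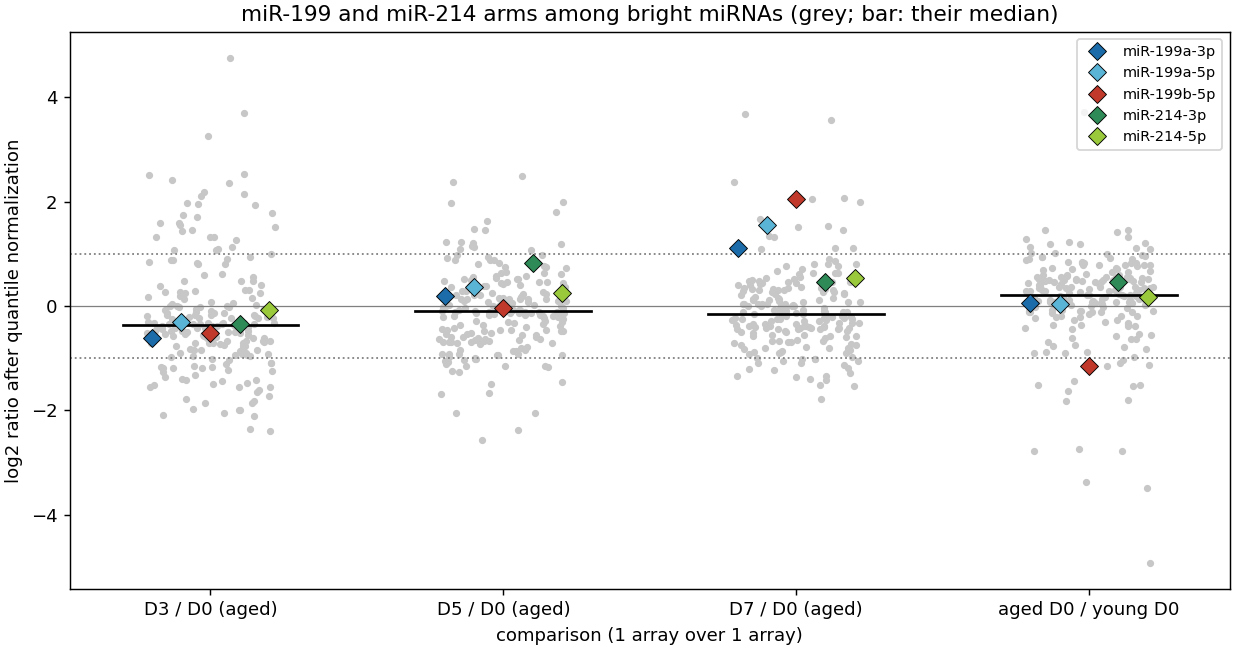
Log2 ratio of the 5 members (diamonds) in each comparison of 1 array over another, after quantile normalization, beside all miRNAs bright on both arrays (grey points; black bar, their median); dotted lines mark 2-fold. The members lie around the grey median at D3, 3 of them lie above the upper dotted line at D7, and miR-199b-5p alone lies below the lower one for aged over young skin.

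Since scaling an array moves all of its probes together, the change of one member relative to another was computed as a ratio of ratios. By construction this value is the same under the 6 alternatives that leave an array unscaled or multiply it by 1 factor, so the 15 alternatives give 10 distinct checks of it. From D0 to D7 miR-214-3p changed by a factor of 0.469 relative to miR-199a-5p and of 0.634 relative to miR-199a-3p. Both factors were below 1 in all 10, with ranges of 0.405 to 0.488 and 0.592 to 0.670. From D5 to D7 the factor against miR-199a-5p was 0.342, between 0.292 and 0.400. The miR-214-3p and miR-199a probes thus did not keep a fixed ratio across these arrays. The miR-199a-5p probe also reads Mir199a-1 on chromosome 9, and no probe reads Mir199a-2 alone. Whether the products of the neighbouring genes on chromosome 1 kept a fixed ratio therefore cannot be told from these probes. miR-199b-5p changed by 1.41 relative to miR-199a-5p from D0 to D7 (1.34 to 1.73 under the alternatives), although the probes differ at 1 base. miR-199a-3p read lower than miR-199a-5p relative to D0, with factors of 0.815, 0.882 and 0.739 at D3, D5 and D7, each below 1 in all 10. The 10 checks reuse the same spots, and the repeat-spot SD on a log2 ratio was 0.143, 0.134 and 0.247 at D3, D5 and D7. Whether the gap between these arms exceeds the disagreement of the spots was not tested, and the miR-199a-3p probe also reads Mir199b. In contrast, both arms had nearly the same ratio in aged over young skin, 1.04 for miR-199a-3p and 1.03 for miR-199a-5p.

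In unwounded skin, miR-199b-5p was lower in aged than in young mice, and it was the 1 of 5 members past 2-fold. After normalization its level in aged skin was 0.452 of the young level, with spots at 0.474 and 0.432, and 13 of 210 bright miRNAs had a smaller ratio. Across the array 6.03% of detected and 8.1% of bright miRNAs were at least 2-fold lower in aged skin, and the bright median was 1.16. The ratio of miR-199b-5p was at or below 0.5 under all 15 alternatives (0.121 to 0.476), and relative to miR-199a-5p it was 0.439 (0.358 to 0.463). The ratio was 1.38 for miR-214-3p and 1.13 for miR-214-5p. For these and for the miR-199a arms the direction depended on the scaling: miR-199a-3p ran from 0.346 to 1.28 and miR-214-3p from 0.489 to 1.81. Relative to miR-199a-5p, miR-214-3p was 1.34 times higher in aged skin (1.21 to 1.46 under the alternatives). At D7 the normalized level of miR-199b-5p in aged wounds was 2152.5, against 1151 in young unwounded skin and 521 in aged unwounded skin, so the D7 wound was above both. As scanned, the D7 wound was below young skin, so its order against young skin depended on the scaling.

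**Figure D3:**
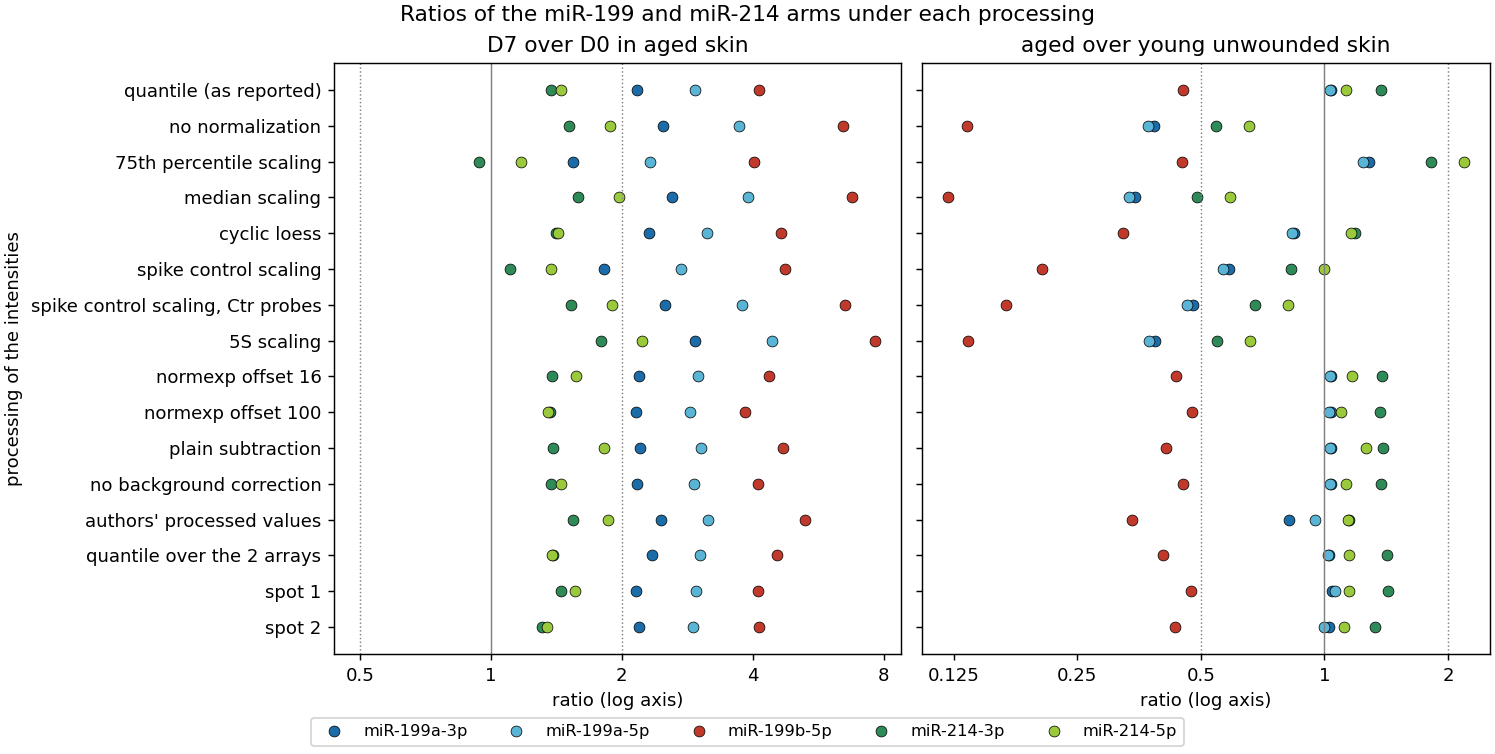
Ratio of each member under every processing of the intensities (log axis), for D7 over D0 in aged skin (left) and aged over young unwounded skin (right); each point is 1 member, solid lines mark a ratio of 1 and dotted lines 2-fold. miR-199b-5p keeps the same side of 2-fold in both panels, from 3.84 to 7.66 at D7 and from 0.121 to 0.476 for age, while the other members cross 1 in the right panel.

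The members' neighbours in expression were sought among the 195 other miRNAs bright on all 5 arrays, by the root mean square difference between log2 profiles centred on their own means. The profile nearest to the mean of the 4 bright members was that of miR-494-3p, at 0.287, followed by miR-152-3p at 0.385, miR-690 at 0.408, let-7j at 0.417 and miR-106a-5p at 0.429. The median over all 195 was 0.706. Of the members averaged, miR-199b-5p at 0.521 and miR-214-3p at 0.483 lay farther from their mean than these 5 miRNAs. That mean was closest to miR-199a-3p (0.071) and miR-199a-5p (0.149). None of the 5 nearest miRNAs reached 2-fold at D7, with ratios from 1.20 for miR-106a-5p to 1.71 for miR-494-3p. Among the members, miR-199a-3p and miR-199a-5p were each other's nearest profile of all, at 0.168. miR-214-3p was nearest to miR-329-3p, at 0.140, and miR-199a-3p stood only at rank 54 for it. miR-199b-5p had no close profile, with miR-668-3p nearest at 0.520. These distances rest on 5 points each and share the normalization of the arrays.

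A list of other miRNAs of the dermal stroma was set beside the members. Of 8 stromal and smooth muscle miRNAs (miR-143-3p, miR-145a-5p, miR-152-3p, miR-10a-5p, miR-10b-5p, miR-99a-5p, miR-100-5p and miR-125b-5p), 0 were at least 2-fold higher at D7 than at D0, beside 16 of 203 bright miRNAs. Their ratios ran from 0.578 for miR-143-3p to 1.38 for miR-100-5p, with a median of 0.927. At D3 they had a median of 0.516, with 4 of 8 at least 2-fold lower, beside 41 of 207 bright miRNAs. Of the 4 miRNAs tied to fibrosis and collagen, miR-21a-5p, which is raised in fibrotic tissue, had a D7 ratio of 5.17, while miR-29a-3p, a repressor of collagen messages, was at 0.702. Its relatives miR-29b-3p and miR-29c-3p were at 2.90 and 1.21.

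Markers of other cell types moved on the same arrays. Of 5 leukocyte miRNAs, 3 were at least 2-fold higher at D3, 3 at D5 and 4 at D7. Of all miRNAs detected on 1 or both arrays, 61 of 1772, 31 of 1079 and 40 of 1565 were. In aged D0 skin only miR-150-5p of the leukocyte list passed the bright level of 211 units. The others read from 87.6 to 197 units there, with miR-142a-3p under the detection level of 105, so their ratios rest on values near the floor. The median ratio of the 5 leukocyte miRNAs was 4.39 at D7 and 0.268 in aged over young skin. Their summed scanned intensity was 901 units in aged D0 skin, between 2390 and 4172 in the wounds and 5829 in young skin. miR-223-3p had the largest D7 ratio of the list, 8.14. The smallest was that of miR-150-5p, which had ratios of 0.743 at D3, 1.48 at D5 and 1.08 at D7. The 8 epithelial miRNAs had a median ratio of 0.404 at D3, 0.574 at D5 and 0.568 at D7, and a summed intensity between 16688 and 28955 in the wounds against 40908 in aged D0 skin. At D3, 6 of the 8 were at least 2-fold lower and 1, miR-200c-3p, was higher at 2.10, beside 41 and 30 of 207 bright miRNAs. Their median in aged over young skin was 1.48, from 0.733 for miR-141-3p to 13.2 for miR-31-5p. The 4 skeletal muscle miRNAs had a median of 0.516 at D7, and their summed intensity was 15455 units there against 32805 at D0. The erythroid miR-451a had a D7 ratio of 0.437 and the endothelial miR-126a-3p one of 1.02, while miR-144-3p and miR-126a-5p were each detected on 1 array. All 5 leukocyte and 8 epithelial miRNAs were detected on 4 or 5 arrays. The part of these cell types in the ratios of the miR-199 and miR-214 arms was not tested.

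**Figure D4:**
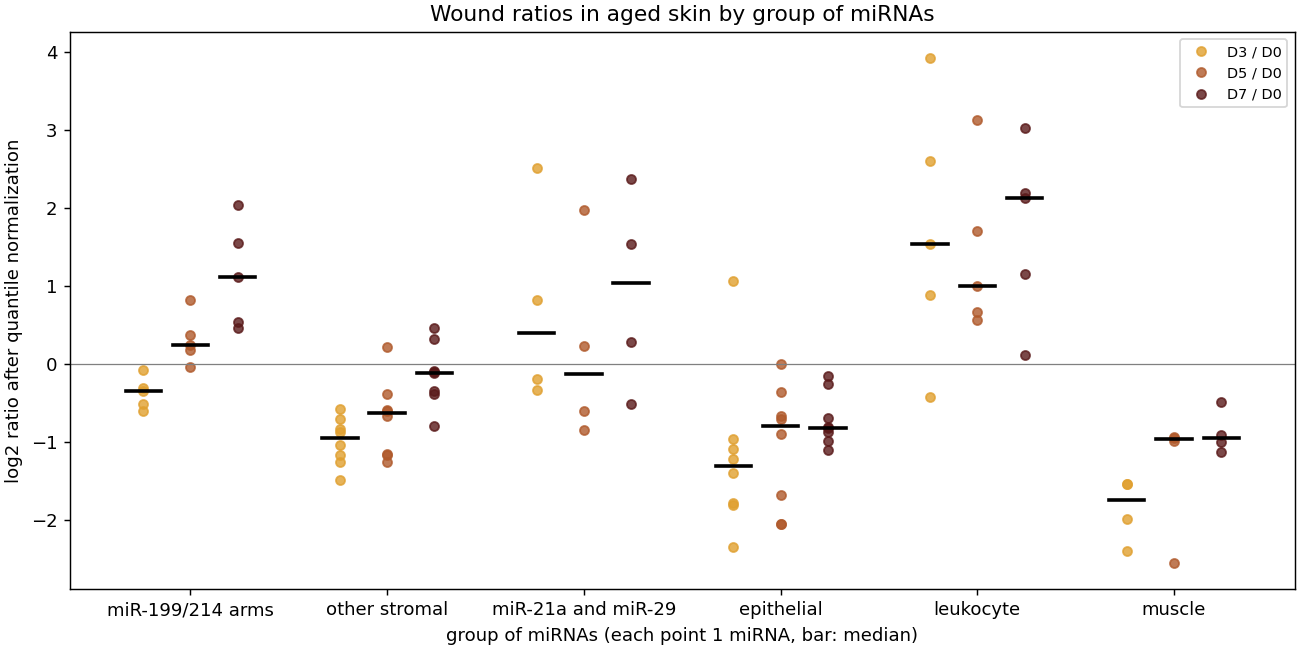
Log2 ratios of aged wounds over aged D0 skin after quantile normalization, for the 5 miR-199 and miR-214 members and for lists of stromal, fibrosis, epithelial, leukocyte and muscle miRNAs; each point is 1 miRNA on 1 array over another and black bars are medians. At D7 the stromal list has a median ratio of 0.927 and the leukocyte list one of 4.39, while 3 members lie above 2-fold.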

How the data were processed

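miRNA levels were measured on single-colour arrays (Cy3) of a service provider, 1 per condition, grouped by the sample labels. The authors deposited each array's median spot intensity, not background-subtracted, with 2 spots for each probe, and a table of processed intensity values whose normalization is not given in the sources used here. The background columns were empty, so normexp (limma 3.58.1, R 4.3.3; offset 50) was fitted to the spot intensities. All 5 arrays were then quantile-normalized on the log2 scale and the 2 spots averaged. Counts of members use a 2-fold threshold and all probes detected on 1 or both arrays. The script was tested on simulated data. The 15 alternatives change the scaling (none, 75th percentile, median, cyclic loess, spike controls, 5S rRNA), the background correction (normexp offset 16 or 100, subtraction, none), the spots used, the arrays normalized together, or take the authors' processed values; the scaling to 11 of the 19 spike control probes was added after seeing the data. Thresholds of 1.5-fold and 3-fold were also counted. Array intensities give no counting error, and with 1 array per condition there are no p-values. The members, the marker lists and the rule for similar profiles (the 5 smallest differences) were chosen with earlier results of these data known. Gene positions and hairpins are from RefSeq on GRCm38.p6; miR-199b-5p was placed by its exact match within the Mir199b hairpin.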

Additional observations from a re-analysis of the deposited data

How the results depend on the processing

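The number of members past 2-fold stayed within 1.5 times its value in 76 recounts and moved further in 26. At D3 over D0 (0 members) it was 2 with all spike controls, 3 with the Ctr spike controls and 1 at 1.5-fold. At D5 over D0 (0) it was 1 with all spike controls and 1 at 1.5-fold. At D7 over D0 (3) it was 2 with the 75th percentile and with all spike controls, 4 with 5S scaling and 1 at 3-fold. For aged over young skin (1) it was 3 without normalization, 2 with the 75th percentile, 4 with the median, 3 with the Ctr spike controls, 3 with 5S scaling and 0 at 3-fold. For D5 over D3 (1) it was 0 without normalization, with the median, cyclic loess, either spike scaling, 5S scaling, the authors' processed values, spot 2 alone and at 3-fold, and 3 at 1.5-fold. For D7 over D5 (2) it was 3 without normalization, with the median and at 1.5-fold, 4 with either spike scaling and 5S scaling, and 1 at 3-fold. No member past 2-fold in the main values turned its direction under any alternative. Some members past 2-fold only under an alternative did turn. Others kept their direction under all 15, such as miR-199a-3p at D3 over D0 and miR-214-5p at D7 over D0. In aged over young skin miR-199a-3p was 0.346 with the median and 1.28 with the 75th percentile. There miR-214-5p was 0.589 with the median and 2.19 with the 75th percentile. The cause of these differences was not tested. No paired analysis was possible because the conditions share no replicate pairs, with 1 array apiece. The arrays differ in brightness, so ratios near 1, and those of miR-214-5p near the detection level, cannot be read without the scaling.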

Other observations

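The dim and bright states of miR-199b-5p were looked for in other probes after its values were seen. Of 399 miRNAs bright on 1 or more arrays, 6 were at least 2-fold higher on both the D7 and young arrays than on each of the other 3 arrays: miR-133b-5p, miR-199b-5p, miR-3962, miR-6238, miR-6965-3p and miR-7239-3p. At 4-fold there were 2, miR-133b-5p and miR-7239-3p.

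Probe pairs that differ at 1 base, as miR-199a-5p and miR-199b-5p do, were also compared, with 15 other such pairs bright on all arrays. These pairs are not independent, since some share a probe such as let-7a-5p. From D0 to D7 the relative change within the miR-199 pair was 1.41-fold, against a median of 1.18 over the other pairs, of which 3 changed more. From D0 to D3 it was 1.15-fold against a median of 1.11, with 6 pairs changing more. From D0 to D5 it was 1.33-fold against a median of 1.06, with 1 pair changing more. For aged over young skin it was 2.28-fold against a median of 1.18, with 2 pairs changing more, miR-29a-3p with miR-29c-3p at 4.18-fold and let-7a-5p with let-7e-5p at 2.90-fold.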
